A study of Mus musculus with 14 samples.

Results

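Spliceosome and SR protein genes were followed through libraries of LEPC, a mouse cell line. Members were the protein-coding genes whose symbols start with Snrp, Sf3a, Sf3b, Srsf, Lsm or U2af, with Son and Rnpc3 added and 1 gene of the Snrp prefix left out by the rule. They numbered 51 of the 21900 protein-coding genes in the RefSeq gene table. The cells were of strain C57BL/6 at 3 passages. The compared groups were cells that overexpressed miR-93-5p, cells that overexpressed a mutated miR-93-5p (called mutant) and control cells labelled scr.

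For each of the 3 groups there was 1 RNA-seq library and 1 library of mRNAs recovered with the microRNA. The second kind is called pulldown below, and the series design names biotin only for miR-93-5p. Histone marks H3K4me3, H3K27me3 and H3K9me3 were profiled by chromatin immunoprecipitation in miR-93-5p and scr cells, again with 1 library each. No value therefore has a replicate error, no difference could be tested, and every difference below is one between libraries. Whether a line is 1 clone or a mixture, and what the letters LEPC stand for, is not given in the sources used here.

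The spliceosome removes introns from pre-mRNA. Its U1, U2, U4 and U5 particles each carry a small nuclear RNA in a ring of Sm proteins, whereas U6 carries a ring of the related LSm proteins. The U1 particle pairs with the 5′ splice site, U2AF binds the polypyrimidine tract and the AG at the 3′ splice site, and the SF3A and SF3B complexes hold the U2 particle on the branch point. SR proteins bind exonic enhancers through RNA recognition motifs and recruit these particles through domains rich in arginine and serine.

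A microRNA finds its mRNAs mainly through bases 2 to 8 from its 5′ end, the seed. miR-93-5p (RefSeq, GRCm38.p6, chr5:138165574-138165596, minus strand) shares its seed with 5 other mature mouse microRNAs of its family, and with miR-6383 outside it. The family is shown because miR-93-5p is the microRNA that was overexpressed and with which the mRNAs were recovered. The seed is in capitals.
mmu-miR-93-5p: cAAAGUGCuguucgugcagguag
mmu-miR-17-5p: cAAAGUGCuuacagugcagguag
mmu-miR-20a-5p: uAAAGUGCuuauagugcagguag
mmu-miR-20b-5p: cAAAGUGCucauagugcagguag
mmu-miR-106a-5p: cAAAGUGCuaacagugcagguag
mmu-miR-106b-5p: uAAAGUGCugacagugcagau
The sequences differ outside the seed, at the first base, in the middle of the molecule and, for miR-106b-5p, at the 3′ end. An mRNA site that pairs with the whole seed reads GCACUUU. The sequence of the mutated miR-93-5p was not used here, so whether its seed differs is not known from these data.

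Promoters are shown for 4 members on which later results turn. Snrpf had the highest level in the miR-93-5p pulldown, Sf3a2 was the only member whose RNA-seq FPKM in miR-93-5p exceeded that of both other libraries by 2-fold, Srsf3 carried the widest H3K4me3 peak, and Srsf12 carried none. Each line gives the 250 bases before the annotated gene start from RefSeq (GRCm38.p6), 5′ to 3′ on the strand of the gene. Snrpf lies at chr10:93589659-93589908 (minus strand), Sf3a2 at chr10:80798485-80798734 (plus strand), Srsf3 at chr17:29032410-29032659 (plus strand) and Srsf12 at chr4:33209022-33209271 (plus strand). Capitals mark matches, on either strand, to CCAAT, to the GC box GGGCGG, to the ETS motif CCGGAAG or to TATAAA.
Snrpf: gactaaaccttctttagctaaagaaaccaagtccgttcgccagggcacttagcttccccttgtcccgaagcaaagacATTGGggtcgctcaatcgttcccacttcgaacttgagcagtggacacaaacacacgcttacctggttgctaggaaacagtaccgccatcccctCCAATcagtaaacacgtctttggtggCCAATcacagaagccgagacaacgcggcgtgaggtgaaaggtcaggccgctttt
Sf3a2: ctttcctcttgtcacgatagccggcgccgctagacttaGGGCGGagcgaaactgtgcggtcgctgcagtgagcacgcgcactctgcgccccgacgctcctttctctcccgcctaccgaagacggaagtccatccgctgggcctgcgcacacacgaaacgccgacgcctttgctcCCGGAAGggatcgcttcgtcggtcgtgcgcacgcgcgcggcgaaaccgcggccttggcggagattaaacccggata
Srsf3: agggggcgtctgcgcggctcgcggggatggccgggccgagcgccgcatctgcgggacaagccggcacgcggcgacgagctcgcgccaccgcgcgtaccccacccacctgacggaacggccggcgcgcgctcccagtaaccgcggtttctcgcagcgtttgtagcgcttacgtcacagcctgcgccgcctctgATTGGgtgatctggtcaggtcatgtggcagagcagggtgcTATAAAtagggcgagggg
Srsf12: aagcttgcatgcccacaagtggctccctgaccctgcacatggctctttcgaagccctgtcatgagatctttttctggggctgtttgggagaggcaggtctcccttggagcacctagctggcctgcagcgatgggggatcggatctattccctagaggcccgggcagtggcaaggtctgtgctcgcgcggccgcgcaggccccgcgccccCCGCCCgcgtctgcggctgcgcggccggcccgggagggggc
Snrpf held 3 CCAAT matches and no other of these motifs. Sf3a2 held 1 GC box and 1 ETS motif, Srsf3 held 1 CCAAT and 1 TATAAA, and Srsf12 held 1 GC box.

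Over the 43 members with a promoter in that table, the ETS motif was found in 14 (32.6%), against 9.13% of 17492 genes. It was present in 6 of the 7 SF3A and SF3B promoters, all but that of Sf3b1. The GC box was found in 26 of 43 members (60.5%) against 42.7% of genes, and in 10 of the 11 SR protein promoters. CCAAT stood in 15 members (34.9%) against 36.3%, and TATAAA in 4 (9.30%) against 12.4%. The cAMP response element TGACGTCA was found in 2 members (4.65%) against 2.01%, and the E box CACGTG in 1 (2.33%) against 6.64%. No member held the NRF1 or YY1 motif searched, each of 10 letters, which were found in 1.06% and 0.360% of genes. Matches were counted on both strands, overlaps between motifs were allowed, and a match is a string of letters, not a site that was shown to be bound. Member promoters were also richer in G and C, with a median of 60.8% against 55.2% over all genes and a median of 19 CpG pairs against 10. The part of this composition in the motif shares was not tested.

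The mRNA levels of most of these genes differed by less than 2-fold in FPKM between the 3 RNA-seq libraries, as those of most genes did. Values are FPKM per assembled locus, that is, fragments scaled to transcript length and to the mapped total, and ratios are log2 of FPKM plus 1. Of the 51 members, 47 had a gene locus on mm9, the build of the RNA-seq loci, and 40 had a matching locus in all 3 libraries with a mean of at least 1 FPKM. The other genes compared the same way brought the total to 8420. Of the 40 members, 37 lay within 2-fold in all 3 ratios, as did 7514 of the 8420 genes. The median log2 ratio of the members over scr was -0.17 for miR-93-5p (0.03 over all genes) and -0.13 for mutant (0.01 over all genes). The median of miR-93-5p over mutant was -0.09 (0.01 over all genes). In sign, 31 of the 40 members lay below scr in miR-93-5p (3952 of 8420 genes) and 30 did in mutant (4077 of 8420 genes), and the same scr library enters both counts. In implied fragments, a measure explained below, the counts were 31 for miR-93-5p and 21 for mutant, and the mutant median was -0.02. In that measure 33 of the 40 members lay within 2-fold in all 3 ratios, as did 6199 of 8120 genes. In bulk RNA, fewer cells of a type and less RNA per cell cannot be told apart.

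Members ranged from 3.25 to 406 FPKM in miR-93-5p, from 2.96 to 299 in mutant and from 4.46 to 531 in scr, with medians of 66.9, 70.4 and 73.2 FPKM in that order of libraries. Lsm11, a protein of the U7 particle that processes histone mRNA ends, was the lowest in each library. Snrpg, an Sm protein, was the highest in miR-93-5p and scr, and Srsf3, the smallest of the SR proteins, was the highest in mutant. The plot of RNA-seq levels by gene shows the 3 libraries close together for most genes.

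**Figure D1:**
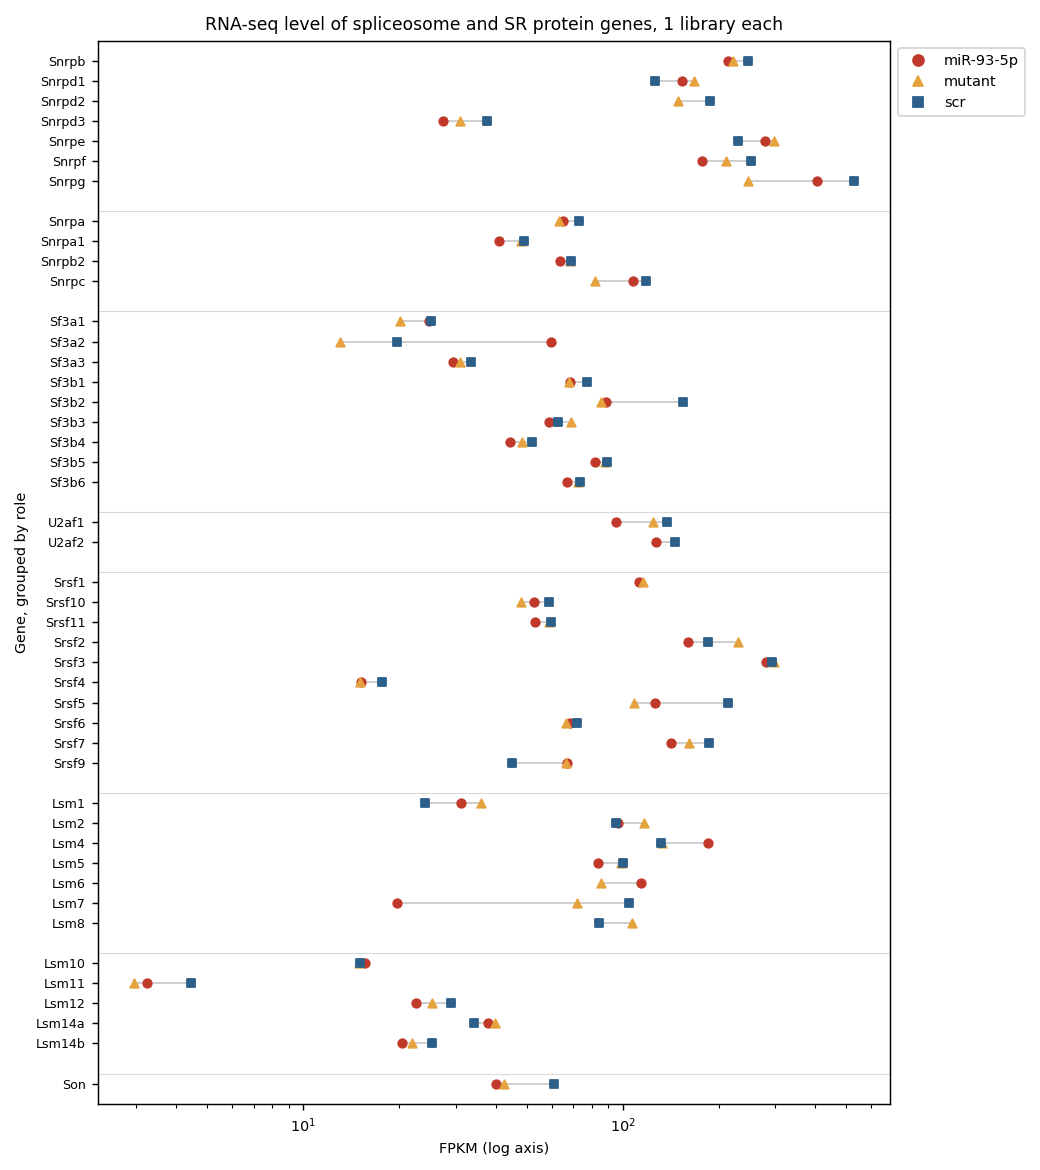
RNA-seq level of each member in FPKM (log axis), grouped by role, with 1 point per library: miR-93-5p (circle), mutant (triangle) and scr (square). Genes with fewer than 3 points had no matching locus in the missing library. Sf3a2 (59.8, 13.0 and 19.6 FPKM) and Lsm7 (19.6, 71.8 and 104 FPKM) have the widest spreads.

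The call used for miR-93-5p asked for a 2-fold or larger difference, to one side, from both the mutant and the scr library. By this rule 1 of 40 members was higher (0.665% of all genes) and 1 was lower (0.879% of all genes). Sf3a2, a subunit of the SF3A complex (mm9 chr10:80260943-80267669), was at 59.8 FPKM in miR-93-5p (bounds 53.3 to 66.3), against 13.0 in mutant (12.2 to 13.8) and 19.6 in scr (18.4 to 20.8). Lsm7, a ring protein of U6 and of the cytoplasmic decay complex (mm9 chr10:80315570-80317954), was at 19.6 FPKM in miR-93-5p (17.7 to 21.6), against 71.8 in mutant and 104 in scr. The bounds are those the authors deposited for each library and cover no biological spread. For Sf3a2 the log2 ratio was 1.56 relative to scr and 2.12 relative to mutant, and for Lsm7 it was -2.35 and -1.82. They were also the only members past 2-fold in a single pair of libraries that holds miR-93-5p. Over scr 1 member was higher (2.97% of all genes) and 1 lower (3.86%), and over mutant 1 was higher (1.85%) and 1 lower (1.77%). For mutant over scr, 0 were higher (2.64%) and 1 was lower (3.63%).

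An FPKM depends on the assumed transcript length, and each library was assembled separately. A measure that is not divided by transcript length was therefore set beside it. It is still taken per assembled locus, so it is not corrected for differences in assembly. The number of fragments whose counting error alone matches the bounds in the files was computed for each locus, and is called implied fragments. These numbers were scaled so that the median ratio over genes was 1, and 10 was added before taking ratios. In this measure Sf3a2 had 341 fragments in miR-93-5p, 1069 in mutant and 1005 in scr, so that the log2 ratio turned to -1.58 over scr and to -1.27 over mutant. Lsm7 had 400, 539 and 605 in the same order, or -0.63 relative to scr and -0.08 relative to mutant on the log2 scale. Neither gene thus kept its call in both measures, and Sf3a2 changed direction. Bounds also widen where isoforms share fragments, so implied numbers may be too low, and they are printed before scaling. Sf3b2 had 8843, 1972 and 2045 implied fragments in miR-93-5p, mutant and scr at 88.4, 85.3 and 154 FPKM. Son had 1994, 830 and 223 at 40.1, 42.5 and 60.8 FPKM, and Lsm4 had 1436, 6219 and 3032 at 185, 133 and 132 FPKM. Sf3b2 and Son were called higher in implied fragments (2.01% of all genes), and Lsm4 and Sf3a2 lower (3.78%). Pair by pair, implied fragments put 3 members above scr in miR-93-5p (7.56%) and 2 below (7.68%), and 2 above mutant (5.71%) and 2 below (6.22%). For mutant over scr they put 3 above (7.77%) and 1 below (7.22%).

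Among the Sm core proteins, which form the ring on each particle RNA, Snrpb was at 214, 221 and 248 FPKM in the RNA-seq libraries of miR-93-5p, mutant and scr, and Snrpf at 177, 210 and 252. Both were lowest in miR-93-5p and highest in scr. Snrpe was at 278, 298 and 230 FPKM and Snrpd1 at 154, 168 and 126, in the same order. In FPKM these genes were instead lowest in scr. In implied fragments Snrpe stood at -0.32 for miR-93-5p over scr and 0.12 for mutant over scr, so it was lowest in miR-93-5p there. Snrpd1 stood at 0.07 and 0.25. Snrpg was at 406 FPKM in miR-93-5p, 247 in mutant and 531 in scr, and its log2 ratio of -1.10 in mutant over scr was the only one past 2-fold for that pair of libraries. Its implied fragments gave 0.02 for the same ratio.

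The 4 U1 and U2 proteins of the Snrp names all stayed within 2-fold in FPKM, as did 7514 of all 8420 genes. Snrpc, the U1 protein that steadies pairing with the 5′ splice site, was at 108, 81.7 and 118 FPKM in miR-93-5p, mutant and scr, and its implied fragments gave -1.19 for mutant over scr. Of the SF3A and SF3B genes, Sf3b1, whose protein surrounds the branch point duplex, was at 68.4, 67.8 and 77.4 FPKM. Sf3b2 was the member of this group furthest below scr, at a log2 ratio of -0.80 in miR-93-5p and -0.85 in mutant. U2af1, the subunit that contacts the AG, was at 95.1, 125 and 137 FPKM, lowest in miR-93-5p.

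None of the 9 SR protein genes compared passed 2-fold in RNA-seq FPKM, and 7514 of all 8420 genes did not either. Srsf5 stood furthest from scr, at 126 FPKM in miR-93-5p and 108 in mutant, against 213 in scr. Its log2 ratios over scr were -0.75 for miR-93-5p and -0.97 for mutant, and its implied fragments gave -0.65 and -0.85. Srsf9 was the only SR gene above scr in miR-93-5p, at 66.7 FPKM in miR-93-5p, 66.5 in mutant and 45.0 in scr. Srsf3 was at 281, 299 and 293 FPKM and Srsf2 at 161, 229 and 184. In FPKM, Srsf3 was thus nearly equal in the 3 libraries, while Srsf2 was highest in mutant. The implied fragments of Srsf3 were 8674 in miR-93-5p, 13056 in mutant and 1868 in scr, or 2.16 and 2.40 relative to scr on the log2 scale, so it passed 2-fold in that measure.

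In RNA-seq, 7 members with a locus were left out of these counts. Lsm6, Lsm8, Snrpd2, Srsf1 and U2af2 each lacked a matching locus in 1 library. In that library the assembled locus overlapped the gene's span too little or ran on into a neighbour, as with Snrpd2, whose miR-93-5p locus also covered Gipr. In the 2 matched libraries of Lsm8 the levels were 107 FPKM in mutant and 84.0 in scr, and in those of Srsf1 they were 113 in miR-93-5p and 116 in mutant. Srsf12 and Lsmem1 had no overlapping locus in any RNA-seq or pulldown library. Lsm3, Lsmem2, Rnpc3 and U2af1l4 had no gene locus in the mm9 rows used. Lsmem1 and Lsmem2 meet the name rule but encode membrane proteins that are not LSm proteins.

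The pulldown spread these genes far more widely than RNA-seq did. All 51 members could be placed on GRCm38, the build that the ends of the pulldown loci matched, and 40 were compared among 5246 genes. Only 9 of the 40 lay within 2-fold in all 3 ratios, as did 1714 of the 5246 genes. Members ranged from 4.85 to 11843 FPKM in miR-93-5p, from 2.11 to 4491 in mutant and from 4.80 to 1236 in scr, with medians of 112, 73.3 and 80.8 FPKM in that order.

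Relative to scr, 13 of the 40 members were higher by 2-fold or more in the miR-93-5p pulldown (11.8% of all genes) and 10 were lower (33.5%). For mutant over scr, 15 were higher (21.8%) and 7 were lower (22.9%). For miR-93-5p over mutant, 6 were higher (4.88%) and 11 were lower (26.5%). The members' median log2 ratio was 0.24 for miR-93-5p over scr (-0.48 over all genes), -0.46 for miR-93-5p over mutant (-0.43) and 0.32 for mutant over scr (-0.06). In FPKM the members' medians thus lay above those of all genes for both ratios over scr and near it for miR-93-5p over mutant. In implied fragments the median of miR-93-5p over mutant was 0.35 (0.02 over all genes). Every such comparison shares a library with the next, and the scr pulldown enters both ratios over scr.

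The miR-93-5p pulldown library stood apart in its assembly. Its loci had a median span of 2121 bp, against 9086 bp in mutant and 9176.5 bp in scr, and 5749 protein-coding genes matched a locus, against 8379 and 8499. The implied fragments of all its loci summed to 3814082, against 5855469 in mutant and 5322228 in scr. In RNA-seq these sums were 15301761, 19513879 and 14589704. The part of the shorter models in the ratios of FPKM or of implied fragments was not tested. In the pulldown the implied fragments of abundant genes bunch together. Genes above 300 FPKM had middle quartiles of 1313 to 2109 in miR-93-5p, 1630 to 2231 in mutant and 1457 to 2156 in scr, whereas in RNA-seq the scr quartiles were 2088 and 14126. Ratios of abundant pulldown genes in implied fragments are therefore compressed. Over 39 members they gave 11 higher (20.6% of all genes) and 6 lower (22.6%) for miR-93-5p over scr, 2 higher (13.0%) and 3 lower (16.8%) for miR-93-5p over mutant, and 9 higher (19.4%) and 5 lower (19.4%) for mutant over scr.

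**Figure D2:**
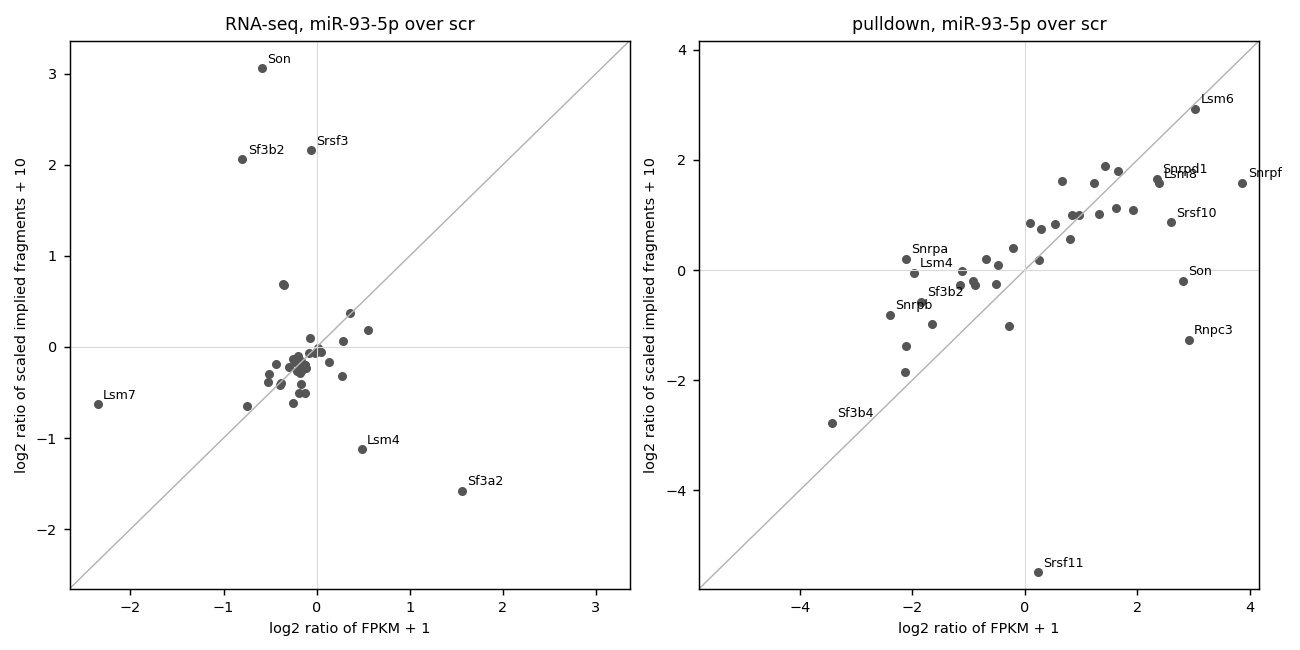
Log2 ratio of miR-93-5p over scr for each member, in FPKM plus 1 (horizontal axis) against implied fragments plus 10 (vertical axis), for RNA-seq and the pulldown. Points off the diagonal differ between the measures: Sf3a2 in RNA-seq (1.56 and -1.58), and Son (2.81 and -0.20) and Rnpc3 (2.91 and -1.27) in the pulldown.

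Sm core genes were among the most abundant members in the pulldown and most of them had a higher FPKM with either microRNA than in scr. Snrpf was at 11843 FPKM in miR-93-5p (bounds 11336 to 12350), against 4491 in mutant and 812 in scr (763 to 860). Snrpe was at 2368 FPKM in miR-93-5p, 2144 in mutant and 621 in scr. Snrpd1 was at 1457 in miR-93-5p, 2144 in mutant and 285 in scr. In each of these genes scr was the lowest library, and only Snrpf was more than 2-fold higher in miR-93-5p than in mutant. Snrpd3 was at 589 FPKM in miR-93-5p, 1720 in mutant and 191 in scr. Snrpd3 and Snrpd1 were thus highest in mutant in FPKM. In implied fragments their log2 ratios of miR-93-5p over mutant were 0.59 and 0.65, so that order was reversed.

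The log2 ratios of Snrpf over scr were 3.87 for miR-93-5p and 2.47 for mutant. In implied fragments they were 1.59 and 0.65, and that of miR-93-5p over mutant was 0.93, on 2185, 2037 and 1116 fragments in miR-93-5p, mutant and scr, so Snrpf passed 2-fold over scr in both measures and over mutant in FPKM alone. The remaining Sm genes did not share this pattern. Snrpg was at 1075 FPKM in miR-93-5p, 632 in mutant and 1236 in scr. Snrpb, which encodes the SmB proteins, was at 72.3 in miR-93-5p, 103 in mutant and 386 in scr, with log2 ratios over scr of -2.40 and -1.89 in FPKM and of -0.82 and -0.97 in implied fragments, short of 2-fold. Over the 6 Sm genes compared, the median log2 ratio was 1.78 for miR-93-5p over scr (1.12 in implied fragments), 2.13 for mutant over scr (0.46) and -0.18 for miR-93-5p over mutant (0.69). In implied fragments 4 of the 6 were higher by 2-fold in miR-93-5p than in scr (20.6% of all genes) and 1 was in mutant (19.4%). Snrpd2 was not compared, since its mutant locus also covered Gipr, and stood at 522 FPKM in miR-93-5p and 677 in scr.

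**Figure D3:**
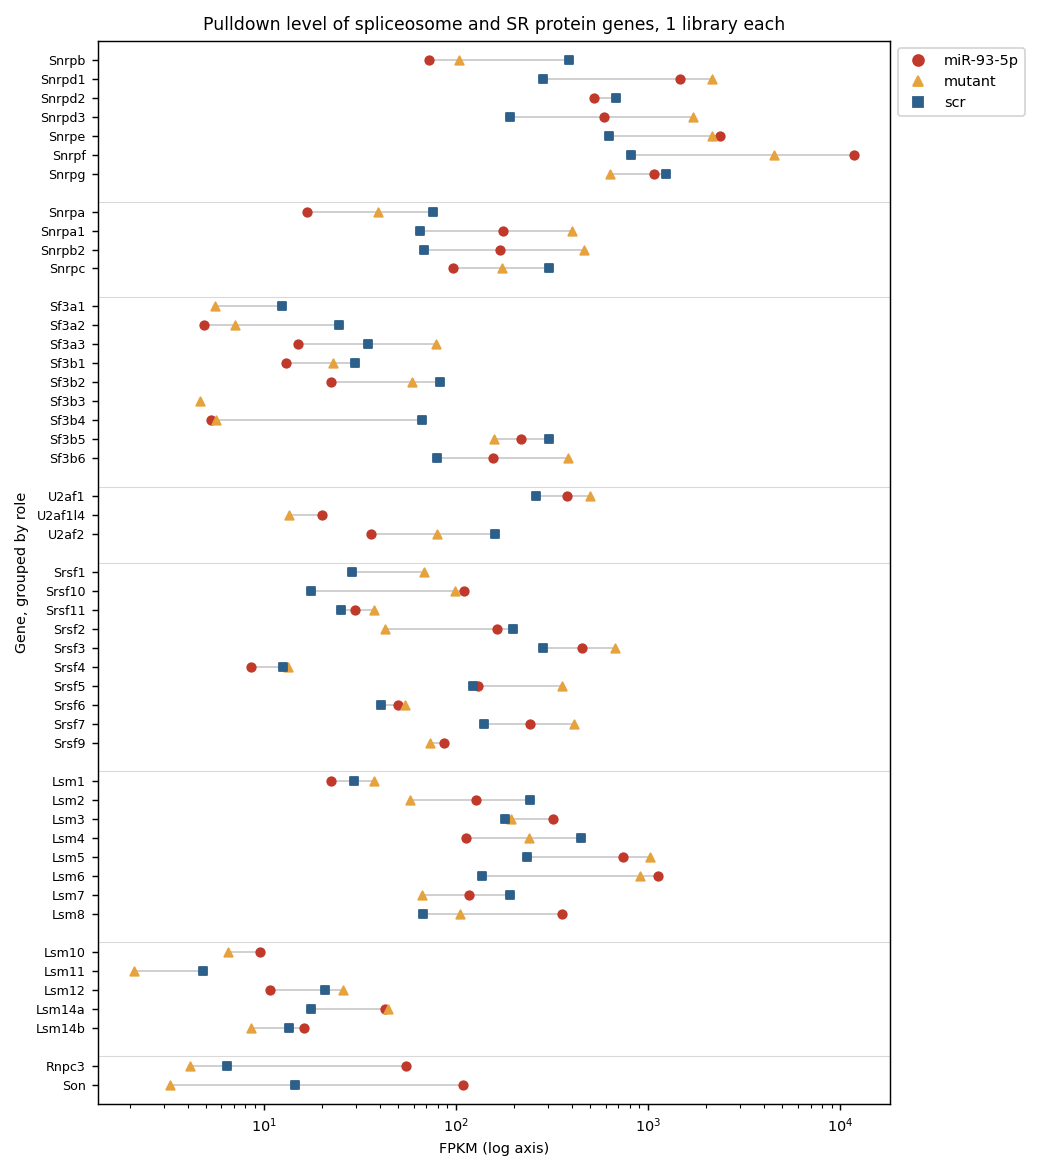
Pulldown level of each member in FPKM (log axis), grouped by role, with 1 point per library: miR-93-5p (circle), mutant (triangle) and scr (square). Snrpf reaches 11843 FPKM in miR-93-5p against 812 in scr, while Sf3b4 lies at 5.31 FPKM in miR-93-5p and at 5.65 FPKM in mutant against 66.8 in scr.

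In FPKM the 4 U1 and U2 proteins split by particle. For miR-93-5p over scr, 2 were at least 2-fold higher (11.8% of all genes) and 2 were lower (33.5%). The U2 proteins, Snrpa1 and its partner Snrpb2, which binds a stem loop of U2 RNA, were higher than in scr. Snrpa1 was at 176 FPKM in miR-93-5p, 403 in mutant and 64.6 in scr, and Snrpb2 at 170, 464 and 67.9. The U1 proteins were lower. Snrpa, which binds a stem loop of U1 RNA, was at 16.6 FPKM in miR-93-5p, 39.1 in mutant and 75.6 in scr, and Snrpc at 96.8, 172 and 305. In implied fragments the log2 ratio of miR-93-5p over scr was 1.88 for Snrpa1 and 1.02 for Snrpb2, and 0.21 for Snrpa and -0.98 for Snrpc. For mutant over scr it was 0.68 for Snrpa and -1.56 for Snrpc. Snrpa was thus not below scr in that measure, and the split by particle did not hold there.

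Most SF3A and SF3B genes lay below scr in the miR-93-5p pulldown. Of the 7 compared, 5 were lower by 2-fold or more in miR-93-5p relative to scr (33.5% of all genes) and none was higher (11.8%), with a median log2 ratio of -1.16. In implied fragments 2 of the 7 were lower (22.6%) and the median was -0.27. Sf3b4, which contacts pre-mRNA near the branch point (mm9 chr3:95976255-95981487), was at 5.31 FPKM in miR-93-5p and 5.65 in mutant, against 66.8 in scr. Its log2 ratios over scr were -3.42 for miR-93-5p and -3.35 for mutant, and -2.77 and -3.23 in implied fragments. It was thus lower with either microRNA in both measures, and miR-93-5p and mutant were nearly equal. Sf3a2, the gene that was higher in miR-93-5p RNA-seq FPKM, was at 4.85 FPKM in the miR-93-5p pulldown, 7.02 in mutant and 24.6 in scr, with implied ratios over scr of -1.85 and -1.78.

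In FPKM, Sf3a3 and Sf3b2 were called lower in the miR-93-5p pulldown than in both other libraries. Sf3a3 was at 15.0 FPKM in miR-93-5p, 78.4 in mutant and 34.7 in scr, and Sf3b2 at 22.3, 58.8 and 82.2. Sf3b1 was at 13.0 FPKM in miR-93-5p, 22.8 in mutant and 29.6 in scr, a log2 ratio of -1.12 over scr in FPKM and of -0.03 in implied fragments. Sf3b6, which lies at the branch point adenosine, was at 156 FPKM in miR-93-5p, 382 in mutant and 79.3 in scr. It and Sf3a3 were the members of this group with an FPKM at least 2-fold higher in mutant than in scr. Sf3b5, a small subunit of the complex, was at 219, 158 and 303 FPKM and within 2-fold in that measure. Its implied fragments gave a log2 ratio of 1.02 for miR-93-5p over mutant. Both U2AF genes compared differed from each other. U2af2, the subunit that binds the polypyrimidine tract, was at 36.1 FPKM in miR-93-5p, 79.1 in mutant and 159 in scr. U2af1 was at 377, 500 and 259. In implied fragments U2af2 stood at -1.38 over scr and -0.66 over mutant on the log2 scale.

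**Figure D4:**
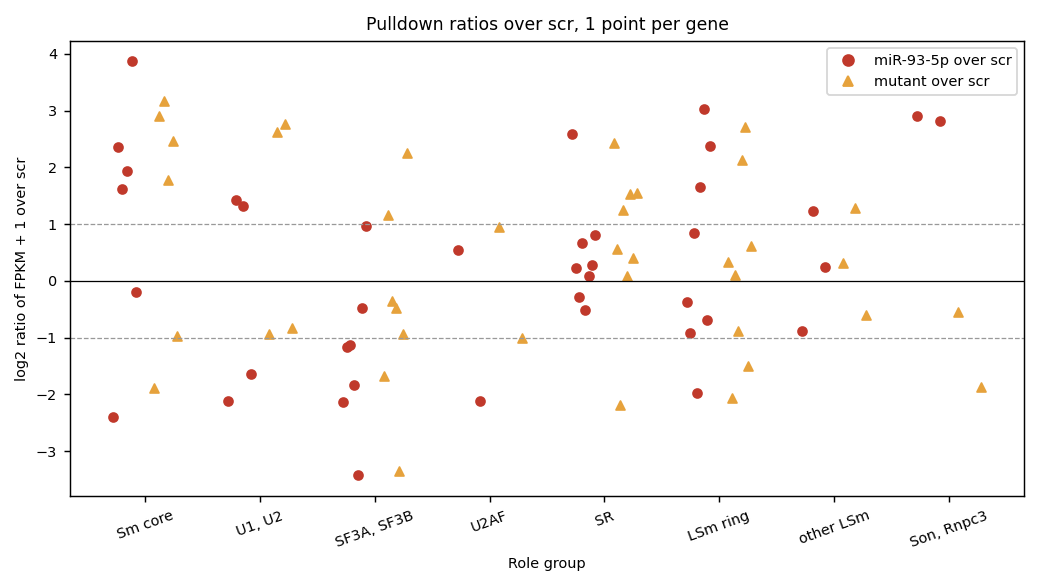
Log2 ratio over scr (FPKM plus 1) of each compared member in the pulldown, by role, for miR-93-5p (circles) and mutant (triangles); the dashed lines mark 2-fold and both sets of points share the scr library. For miR-93-5p, 11.8% of all genes pass 2-fold upward, and 4 of 6 Sm core genes and none of 7 SF3A and SF3B genes do.

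SR protein genes were mostly at or above scr. Srsf10, a splicing repressor when dephosphorylated, was the only one with a 2-fold higher FPKM in miR-93-5p than in scr, at 110 FPKM in miR-93-5p and 98.1 in mutant, against 17.5 in scr. Its log2 ratios over scr were 2.59 and 2.43 in FPKM and 0.87 and 0.95 in implied fragments. Srsf3 was at 451 FPKM in miR-93-5p, 673 in mutant and 284 in scr, Srsf5 at 130, 355 and 122, and Srsf7 at 243, 409 and 139. In FPKM, Srsf3, Srsf5 and Srsf7 were highest in mutant. With Srsf10 they were the 4 of 8 SR genes at least 2-fold higher in mutant than in scr (21.8% of all genes). In implied fragments 1 of the 8 was, Srsf5 (19.4%). There Srsf3 stood at 0.65 for miR-93-5p over mutant, and so was not highest in mutant. In implied fragments Srsf3, at 1.61, was the only SR gene higher by 2-fold for miR-93-5p over scr (20.6% of all genes). There 2 of the 8 were lower (22.6%), Srsf2 at -1.02 and Srsf11 at -5.49, the latter on 3.95 fragments in miR-93-5p. Srsf2 was at 163 FPKM in miR-93-5p, 42.9 in mutant and 198 in scr, and so was lowest in mutant. Srsf6 and Srsf4 stayed within 2-fold, at 49.8, 54.2 and 40.8 FPKM for Srsf6 and 8.51, 13.3 and 12.5 for Srsf4. Srsf11 was at 29.8 FPKM in miR-93-5p with bounds of 0 to 59.7, too wide to place it against 37.6 in mutant and 25.2 in scr. Over the 8 SR genes the median log2 ratio was 0.26 for miR-93-5p over scr, 0.90 for mutant over scr and -0.45 for miR-93-5p over mutant.

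All 8 LSm ring genes were compared in the pulldown. These proteins make a ring with Lsm8 on U6 RNA and, with Lsm1 in its place, a ring on mRNAs that are about to be decapped. Lsm6 was at 1124 FPKM in miR-93-5p and 905 in mutant, against 137 in scr, and Lsm5 at 739 and 1027, against 233. The log2 ratios of Lsm6 over scr were 3.03 for miR-93-5p and 2.72 for mutant, and 2.93 and 2.36 in implied fragments, so the difference stood in both measures. Lsm8 was at 356 FPKM in miR-93-5p (329 to 383), 104 in mutant and 67.6 in scr, and was called higher than both. Its implied fragments, 710, 1524 and 360 in that order, gave 1.58 over scr but -0.26 over mutant. Lsm4 was at 113 FPKM in miR-93-5p, 240 in mutant and 445 in scr, and was called lower than both, with implied ratios of -0.05 over scr and 0.88 over mutant.

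The other ring genes showed no shared direction. Lsm2 was at 128 FPKM in miR-93-5p, 57.5 in mutant and 242 in scr, and Lsm7 at 117, 66.6 and 190. Both were lowest in mutant in FPKM. In implied fragments the log2 ratio of mutant over scr was 0.21 for Lsm2 and -0.99 for Lsm7. That of miR-93-5p over mutant was -0.41 and 1.18, so Lsm2 was no longer lowest in mutant. Lsm3 was at 321 FPKM in miR-93-5p, 192 in mutant and 179 in scr. Lsm1 was at 22.4 FPKM in miR-93-5p, with bounds of 0 to 70.2 that allow no comparison with 37.3 in mutant and 29.3 in scr. Of the other LSm names, Lsm14a, a protein of P bodies, was at 42.5 FPKM in miR-93-5p and 44.4 in mutant, against 17.6 in scr. Its related gene Lsm14b was at 16.1, 8.54 and 13.4 FPKM, within 2-fold in all ratios.

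Son, which encodes a scaffold of nuclear speckles (mm9 chr16:91647751-91679466), had the widest ratio over mutant of all members. It was at 108 FPKM in miR-93-5p (93.4 to 123), against 3.25 in mutant and 14.6 in scr. Its implied fragments, 214 in miR-93-5p, 422 in mutant and 379 in scr, put it at -0.20 relative to scr and -0.14 relative to mutant on the log2 scale, where FPKM gave 2.81 and 4.68. Rnpc3, a protein of the minor spliceosome that links U11 and U12, was at 54.8 FPKM in miR-93-5p (38.2 to 71.4), 4.10 in mutant and 6.42 in scr. Its implied fragments numbered 43.7, 151 and 178, giving -1.27 relative to scr and -0.85 relative to mutant on the log2 scale. For both genes the higher FPKM of miR-93-5p had no counterpart in implied fragments.

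Against both other pulldown libraries, 4 of the 40 members were called higher in miR-93-5p (1.64% of all genes): Snrpf, Lsm8, Son and Rnpc3. The 5 called lower (11.9%) were Snrpa, Sf3a3, Sf3b2, U2af2 and Lsm4. In implied fragments none of 39 members was called higher (5.37% of all genes), and 1, Srsf11, was called lower (9.69%) on 3.95 fragments in miR-93-5p. The share called lower in FPKM, 5 of 40, was near that of all genes.

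The remaining 11 members had no matched locus in at least 1 pulldown library. Srsf1 was at 77.3 FPKM in a miR-93-5p locus that just missed the overlap rule, 67.9 in mutant and 28.7 in scr. Sf3a1 was at 5.10 FPKM in a partial miR-93-5p locus, 5.56 in mutant and 12.4 in scr. Both lie on the same side of scr as most of their groups, although they were not counted. Lsm10 was at 9.47 FPKM in miR-93-5p and 6.47 in mutant. Srsf9 was at 86.1 FPKM in miR-93-5p and 73.3 in mutant. U2af1l4, a relative of U2af1, was at 19.97 FPKM in miR-93-5p and 13.5 in mutant. In scr the loci of Lsm10 and Srsf9 ran into neighbouring genes and U2af1l4 had none. Lsm11 was at 2.11 FPKM in mutant and 4.80 in scr and had a partial locus in miR-93-5p, and Sf3b3 was matched in mutant alone, at 4.67. Lsmem2 lay under a locus shared with Ifrd2 in each library.

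Many Sm and LSm genes have processed pseudogenes elsewhere in the genome, so their values are less certain than those of single-copy genes. How reads that fit several places were counted, and whether counting used strand, is not given in the sources used here. Reads of overlapping neighbours could then not be told apart.

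Other genes of the splicing pathway were read from lists of further spliceosome subunits, SR-like factors and SR kinases, hnRNP genes and Sm ring assembly genes. In RNA-seq, 44 of 48 further subunits were compared, with a median log2 ratio of -0.12 for miR-93-5p over scr. None was at least 2-fold higher (2.97% of all genes) and 1, Prpf4, was lower (3.86%), at 6.18 FPKM in miR-93-5p, 13.1 in mutant and 13.7 in scr. Its implied fragments gave -0.52 over scr, short of 2-fold. Snrnp70, the U1 protein with an SR-like domain, was at 228 FPKM in miR-93-5p, 96.9 in mutant and 121 in scr, and its implied fragments gave a log2 ratio of -0.78 over scr. In FPKM no SR-like factor (12 compared) or hnRNP gene (15 compared) passed 2-fold for miR-93-5p over scr. In implied fragments 2 hnRNP genes were higher (7.56% of all genes) and 1 was lower (7.68%), and 1 SR-like factor was lower. For mutant over scr 1 hnRNP gene, Hnrnpul1, was higher in FPKM (2.64% of all genes), at 56.1 in mutant and 26.6 in scr. Its implied fragments gave -0.17 for the same ratio. Among 8 Sm assembly genes, Gemin8 was higher for miR-93-5p over scr (2.97% of all genes), at 19.4, 16.5 and 7.26 FPKM. Gemin2 was lower (3.86%), at 5.85, 9.09 and 12.9. In implied fragments their log2 ratios over scr were 1.27 for Gemin8 and -0.31 for Gemin2.

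In the pulldown, 34 further subunits had a median log2 ratio of -0.51 for miR-93-5p over scr (-0.48 over all genes), with 7 higher (11.8% of all genes) and 10 lower (33.5%). In implied fragments the median was 0.03. Zcrb1 and Zrsr2, proteins of the minor spliceosome, were higher. Zcrb1 was at 1289 FPKM in miR-93-5p, 760 in mutant and 183 in scr, and Zrsr2 at 123, 88.7 and 19.0. Snrnp27, of the tri-snRNP, was at 360 FPKM in miR-93-5p, 613 in mutant and 66.0 in scr, while Prpf6, which bridges U5 and U4/U6, was at 1.5, 19.2 and 20.9. Of 18 hnRNP genes, 3 were higher in miR-93-5p than in scr (11.8% of all genes) and 7 lower (33.5%), with a median of -0.74 in FPKM and 0.16 in implied fragments. Hnrnpl was at 11.0 FPKM in miR-93-5p, 44.0 in mutant and 122 in scr, and the polypyrimidine tract binding gene Ptbp1 at 18.5, 25.4 and 107. Hnrnpa3 was at 172, 225 and 31.3. The SR-like factor Tra2a was at 112 FPKM in miR-93-5p, 105 in mutant and 45.9 in scr.

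On chromatin, nearly all of these genes carried the active mark. H3K4me3 marks promoters of active genes, H3K27me3 those silenced by Polycomb, and H3K9me3 heterochromatin. A gene was counted as marked where a deposited peak overlapped its mm9 locus by at least 1 bp. H3K4me3 lay on 45 of 47 members in miR-93-5p and on 45 of 47 in scr, where 56.6% and 56.3% of 18463 genes were marked. The unmarked members were Srsf12 and Lsmem1 in both. No member had an H3K27me3 peak in miR-93-5p or scr, against 19.0% and 20.4% of genes.

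H3K9me3 was found on 2 members in miR-93-5p (20.2% of all genes) and on 1 in scr (15.4%). Srsf12 (mm9 chr4:33295966-33320315) had 2 peaks in miR-93-5p, the wider 1229 bp long, and 1 peak of 1235 bp in scr. Their highest scores, as the authors' peak lists give them, were 115.33 in miR-93-5p and 122.02 in scr. Lsmem1 had 1 peak of 691 bp in miR-93-5p with a score of 55.57, near the lowest score of 50 in that list, and none in scr. Thus the members with H3K9me3 peaks were those without H3K4me3 and without an RNA-seq locus. The lists held 25879 H3K9me3 peaks over 39236756 bp in miR-93-5p and 15888 over 21558002 bp in scr, so more of the genome was called in miR-93-5p.

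The widest H3K4me3 peak on a member had a median length of 3197 bp in miR-93-5p and 3080 bp in scr, against 2916 and 2807 bp over all marked genes. Srsf3 had the widest, at 6383 bp in miR-93-5p and 5949 bp in scr, followed by Srsf2 at 5717 and 5669 bp and U2af2 at 5242 and 5398 bp. Lsm10 had the narrowest, at 1493 and 1552 bp. Peaks were wider in miR-93-5p on 31 of 45 members (68.9%), where 6321 of 10216 genes were (61.9%). The median log2 ratio of widths was 0.06 over the members and 0.04 over all genes. It ranged from -0.14 for Lsm1 (3234 bp in miR-93-5p, 3565 in scr) to 0.26 for Lsm8 (2755 and 2299 bp). Snrpf, whose pulldown level in miR-93-5p differed most from scr, had peaks of 2542 bp in miR-93-5p and 2713 bp in scr.

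**Figure D5:**
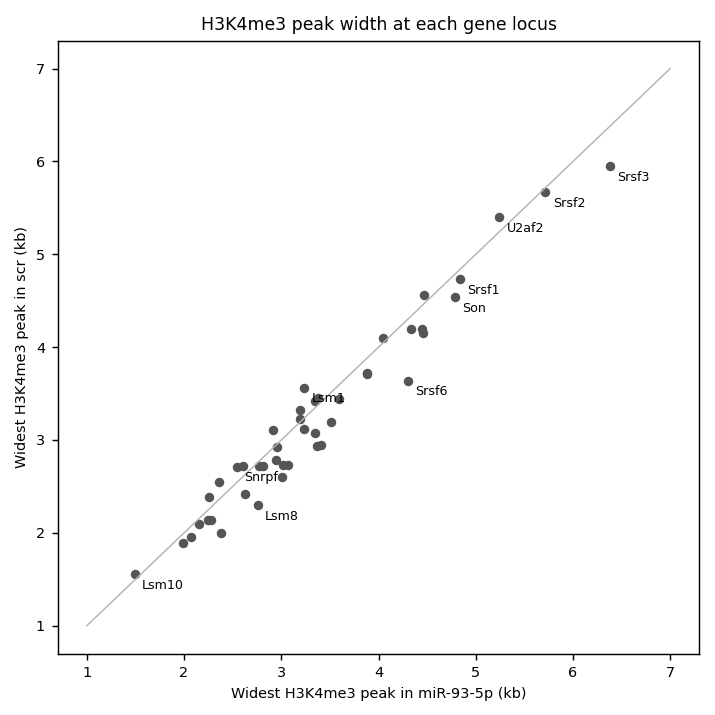
Length in kb of the widest H3K4me3 peak at each of 45 members, in miR-93-5p (horizontal axis) and in scr (vertical axis); the line marks equal length. All points lie close to the line, from Lsm10 (1493 and 1552 bp) to Srsf3 (6383 and 5949 bp).

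The cells were checked against markers in RNA-seq. The epithelial keratin Krt8 was at 230 FPKM in miR-93-5p, 283 in mutant and 658 in scr, and Krt18 was at 200, 253 and 306. The liver factor Hnf4a was at 7.22, 27.4 and 40.6 FPKM, and Cdh1 at 1.52, 3.87 and 30.7. The progenitor and biliary gene Spp1 was at 1076, 1077 and 531, and Sox9, of the same class, at 11.1, 6.91 and 8.22. The hepatocyte gene Apob was at 2.54, 10.0 and 29.1. Alb was at 1.08 FPKM in mutant and 1.30 in scr, and Ttr at 2.04 and 0.969. For Alb and Ttr the miR-93-5p library gave no value. Krt19 was at 418 in miR-93-5p and 522 in mutant, with a blank in scr. Epcam was seen in scr alone, at 0.840 FPKM. Cps1, of hepatocytes, and Prom1, of progenitors, were seen in no library. Epithelial and liver markers with a value in each library thus moved between the libraries as well, and their part in the values above was not tested. Of the leukocyte genes, Csf1r was at 1.16 FPKM in miR-93-5p, 1.82 in mutant and 7.63 in scr, Cd68 was matched in scr alone at 1.56 FPKM, and Ptprc had no matched locus. None was found either for the endothelial genes Pecam1, Cdh5 and Kdr or for the fibroblast genes Col1a1, Col1a2 and Pdgfra.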

How the data were processed

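Members, gene lists and rules were chosen with earlier results of these data known. Both RNA assays are given as FPKM of assembled loci, with bounds, per the file headers. The authors' peak lists give a score per peak for each library. TopHat2, Cufflinks, Cuffdiff, Bowtie, MACS and CASAVA 1.4 were used, with mm9, per the submitters' processing notes; settings are not given there. RNA-seq locus ends fell exactly on mm9 gene ends 126 to 146 times per library, and on GRCm38 ends 2 to 5 times. Pulldown locus ends did so 4 to 5 and 82 to 85 times, so pulldown loci were named through a RefSeq GRCm38.p6 table and RNA-seq loci and peaks through 18463 mm9 gene loci listed in the deposited pulldown files.

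Loci were paired with genes by mutual best overlap, if at least 0.5 of the joint length was shared. Genes matched in all 3 libraries with a mean of at least 1 FPKM were compared as log2(FPKM + 1), which understates ratios of low genes. Implied fragments are the square of FPKM over its error, the bounds being 2 errors from the value, with at least 3 in each library. Values were named for members past 2-fold against both other libraries, for the 4 of each role furthest from scr, for the lowest and highest member, and for up to 4 genes of each pathway list. Further members were named after their values were seen. With 1 library per group there was no test. Depth is not given beyond the sums of implied fragments. The steps were tested on simulated RNA-seq loci that lay close to the gene ends, with bounds from counting error alone. Differences in assembly between libraries were not simulated, so that test does not cover them. The 2 input samples were not analysed here. Python 3.11.15 with pandas 2.3.3, numpy 2.4.6 and matplotlib 3.10.9 was used. Alternatives were another pseudocount (0.1), no filter, overlaps of 0.1 and 0.9, implied fragments, rescaling of all ratios to a median of 0, and stricter peak rules.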

Additional observations from a re-analysis of the deposited data

How the results depend on the processing

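With 1 library per group, leaving a library out was not possible. No paired analysis was possible because every group had 1 library, so that no more than 1 replicate number is shared. Alternatives for the counts of a single pair of libraries were chosen after seeing the data.

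Using implied fragments in place of FPKM changed most. In RNA-seq it called 2 members higher and 2 lower than both other libraries, 3 higher and 2 lower for miR-93-5p over scr, 2 higher and 2 lower for miR-93-5p over mutant, and 3 higher for mutant over scr, where FPKM had 1 each and 0 for mutant over scr. In the pulldown it called 0 higher and 1 lower than both, 6 lower for miR-93-5p over scr, 2 higher and 3 lower for miR-93-5p over mutant, and 9 higher for mutant over scr, and the median of miR-93-5p over mutant turned to 0.35 (0.02 over all genes). Among the members called in FPKM against both other libraries, directions turned for Sf3a2 in RNA-seq (-1.58 over scr, -1.27 over mutant). In the pulldown they turned for Lsm4 (0.88) and Lsm8 (-0.26) over mutant and for Snrpa over scr (0.21). They also turned for Rnpc3 (-1.27 over scr, -0.85 over mutant) and Son (-0.20 and -0.14). Apart from the measure itself, the cause was not tested.

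Rescaling the pulldown to a median of 0 left 0 members lower than both, 10 higher and 4 lower for miR-93-5p over mutant, and medians of 0.72 over scr and -0.039 over mutant. All genes had stood at -0.48 and -0.43. An overlap of 0.9 left 30 RNA-seq members and 0 higher than both, over scr or over mutant. It left 25 pulldown members, with 3 higher for miR-93-5p over mutant and 4 lower for mutant over scr. An overlap of 0.1 admitted 43 RNA-seq members, with 2 higher over scr, 2 higher over mutant, and 2 lower over scr, over mutant and over both. Shares of all genes under the rescaling and under these overlaps are not given here. These counts therefore show how the calls depend on the setting and are no result about the members.

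Of the peak counts, H3K9me3 members in miR-93-5p numbered 1 at a score of at least 100 and 0 within 1 kb of a gene end, and in scr 0 within 1 kb. Of the other results under an alternative, 118 counts and medians stayed within a set allowance, for medians a move of less than 0.2. A count could change and still be kept, as with 13 pulldown members higher over scr in FPKM and 11 in implied fragments. Further, 104 single ratios kept their side of the limit, and 13 no longer passed 2-fold. These tallies include the setting without a filter, which compared the same 40 members in each assay, so agreement there was fixed in advance. With a single library per group no value has a replicate error, and the counting depth behind it is known only through the bounds.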
